A study of Mus musculus with 24 samples.

Results

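The cell-surface display of peptides by MHC class I molecules was followed through 10 genes, B2m, H2-K1, H2-D1, Tap1, Tap2, Tapbp, Psmb8, Psmb9, Nlrc5 and Erap1, which were chosen by name and are 10 of the 24825 genes listed in the files. In every cell that displays class I molecules, the proteasome cuts cytosolic proteins into peptides, the TAP transporter carries the peptides into the endoplasmic reticulum, and a loading complex places them on a heavy chain that is paired with beta-2-microglobulin. Interferons raise the genes of this pathway together, in part through NLRC5, a transactivator of class I promoters. Among the genes raised are those of immunoproteasome subunits, which take the place of the constitutive catalytic subunits of the proteasome. Cells of fat tissue that are not leukocytes, adipocytes and their precursors included, carry class I molecules. All 10 genes had at least 242 reads in every library and passed the filter on low values (FPKM of at least 1 in at least 3 of 24 libraries, 12640 genes in all).

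RNA came from the stromal vascular fraction of inguinal fat of mice (ingSVF in the labels), a preparation that holds adipocyte precursors. All groups came from mice with both Nfia alleles floxed (loxP sites around exon 2) and were immortalised with SV40 large T antigen, and the labels give no further treatment for any of them. The ctrl cells carried an empty retroviral vector, the Cre cells carried retroviral Cre recombinase, the Cre + NFIA cells carried Cre and 3xFLAG-tagged full-length NFIA, and the Cre + deltapro#3 cells carried Cre and a tagged NFIA without a proline-rich stretch at its C-terminus. Libraries were made at day 0, ahead of differentiation, and on day 7 of a thermogenic differentiation protocol started with IBMX, indomethacin, dexamethasone, insulin, T3 and rosiglitazone, with 3 libraries per group. The design asks which genes change when Nfia is targeted, and which changes full-length or mutant NFIA restores. Nothing in the sources says that the 3 libraries of a group were separate cultures, so the p-values measure the spread between these libraries, which may be technical.

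The promoters of both heavy chains and of B2m hold the same pair of motifs, which is why these sequences are shown. A TGACG motif, of the kind bound by CREB-family proteins, and an ATTGG motif (the Y box, read as CCAAT on the other strand, bound by NF-Y) stood in the same order and 20 bases apart in 3 of the 8 genes with a RefSeq promoter, on NCBIM37, the assembly that mm9 names. The sequences run 5′ to 3′ along the gene, and capitals mark both motifs.
H2-K1 (chr17:34137304-34137333, minus strand): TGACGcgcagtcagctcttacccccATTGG
H2-D1 (chr17:35399938-35399967, plus strand): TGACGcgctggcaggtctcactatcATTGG
B2m (chr2:121973345-121973374, plus strand): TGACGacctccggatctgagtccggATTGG

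This spacing was present in 0.0944% of the 32851 RefSeq windows of 300 bases, on either strand, while TGACG alone was in 20.8% and ATTGG alone in 37.4%. Of the 20 bases between the motifs, H2-K1 and H2-D1 shared 13 and H2-K1 and B2m shared 3. The letters of these motifs and the spacing of 20 bases were chosen after the sequences were seen. The share over all windows is therefore no test of the 3 genes, and a match is a description, not a binding site. The 150 bases before the annotated start are given for the more abundant heavy chain and for B2m, because they hold the motifs in their context. Capitals mark TGACG, the palindrome GGGATTCCC of the NF-kB type, the interferon-response cores GAANNGAAA and GAAANNGAA on either strand, and ATTGG.
H2-K1 (chr17:34137293-34137442, minus strand): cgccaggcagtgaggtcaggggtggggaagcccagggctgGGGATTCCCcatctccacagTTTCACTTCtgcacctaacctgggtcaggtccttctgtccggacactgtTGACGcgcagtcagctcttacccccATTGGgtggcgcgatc
B2m (chr2:121973272-121973421, plus strand): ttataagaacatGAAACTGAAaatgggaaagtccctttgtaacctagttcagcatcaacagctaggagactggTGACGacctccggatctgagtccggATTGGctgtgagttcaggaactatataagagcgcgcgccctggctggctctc

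The interferon-response core was found in the windows of H2-K1, H2-D1, B2m and Erap1, against 14.8% of all windows, and the NF-kB palindrome in those of H2-K1 and H2-D1, against 0.353%. A local alignment of the H2-K1 and H2-D1 windows spanned 242 columns with 89.7% identity. The NFI motif TTGGC, the recognition sequence of the family to which NFIA belongs, was in the windows of 5 of the 8 genes (B2m, H2-D1, Tap1, Psmb9 and Tapbp) and in 46.7% of all windows, and its palindromic form with a spacer of 5 bases was in none of the 8 and in 0.037% of all windows. In B2m and H2-D1 the TTGGC overlaps an ATTGG. The RefSeq starts of Tap1 and Psmb9 point away from each other and lie 226 bases apart, so their windows share 275 of 300 bases. Nlrc5 and Tap2 had no entry in the promoter table.

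The 7 genes other than B2m, Nlrc5 and Erap1 lie in the MHC region of chromosome 17: Tapbp at chr17:34052844-34066235 (plus strand), H2-K1 at chr17:34132962-34137278 (minus strand), Psmb9 at chr17:34318932-34324697 (minus strand), Tap1 at chr17:34324498-34334170 (plus strand), Psmb8 at chr17:34334666-34338399 (plus strand), Tap2 at chr17:34340472-34353266 (plus strand) and H2-D1 at chr17:35399675-35404444 (plus strand). B2m lies at chr2:121973422-121978819 (plus strand), Nlrc5 at chr8:96996663-97051172 (plus strand) and Erap1 at chr13:74777320-74829983 (plus strand) (GENCODE vM1 on NCBIM37). In GENCODE the Psmb9 and Tap1 genes overlap on opposite strands, unlike in RefSeq, and the counts were made by strand. The RefSeq windows of H2-D1, Tapbp, Psmb8 and Psmb9 lie inside the GENCODE spans of these genes, and so does the H2-D1 motif pair. For these genes the windows therefore do not precede the GENCODE start. Reads that aligned to more than 1 place were discarded, which touches the heavy chains: of all stretches of 50 bases in the longest annotated transcript, 8.87% in H2-K1, 14.3% in H2-D1 and 17.3% in H2-Q4 also occurred in transcripts of other genes, against 0.861% in Tap1 and none in B2m. With stretches of 100 bases these shares were 0% in H2-K1, 4.64% in H2-D1 and 1.12% in H2-Q4. H2-Q6, H2-Q7, H2-Q8 and H2-Q9 are listed at 0 in all 24 libraries, for a reason that was not tested. The shared share was 23.2% in H2-Q6 and 27.0% in H2-Q7 with stretches of 50 bases, and 10.4% and 12.6% with stretches of 100. No such share is given for H2-Q8 and H2-Q9.

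Library totals were 7.73 M to 14.6 M reads, and the 24 pairs of replicate libraries differed by more than sampling noise (chi-square per degree of freedom 2.17 to 15.1). Nfia, the targeted gene, had 6.23 to 6.75 FPKM in ctrl and 5.34 to 6.81 in the libraries labelled Cre at day 0, and at 9.15 to 9.81 and 9.49 to 10.7 FPKM at day 7. FPKM (fragments scaled to gene length and library size) is taken over the whole gene and cannot show the loss of exon 2 alone. Within these libraries each direction below therefore rests on the label Cre. Outside them, the authors report efficient recombination by genomic PCR, and near-complete loss of NFIA mRNA and protein with Cre. With the transgenes, Nfia had 69.7 to 97.1 FPKM in Cre + NFIA and 59.7 to 111 in Cre + deltapro#3 over both days. Of 10 leukocyte markers, 7 never passed 3 reads, Ptprc (CD45) had at most 1 read, Tyrobp and Adgre1 were at 0 in all 24 libraries, and the remaining 3, Cd68, Csf1r and Lyz2, reached 8.23, 3.64 and 5.71 FPKM. The summed leukocyte markers were 8.27 to 8.82 FPKM in ctrl at day 0 and 5.34 to 5.93 in ctrl, 6.33 to 8.08 in Cre, 4.55 to 6.64 in Cre + NFIA and 9.78 to 10.5 in Cre + deltapro#3 at day 7. The summed FPKM of 6 adipocyte markers was 99.2 to 108 at day 0 in ctrl, and at day 7 it was 21300.1 to 24713 in ctrl, 4277 to 9186 in Cre, 19813 to 20060.1 in Cre + NFIA and 814 to 2066 in Cre + deltapro#3. The summed FPKM of 6 precursor and fibroblast markers was 2129.9 to 2202 in ctrl at day 0 and 498 to 548, 1096 to 1234, 527 to 596 and 1253 to 1510.4 in the same order at day 7.

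Before differentiation the whole pathway was expressed. B2m, the invariant light chain of every class I molecule, was number 3 of all 24825 genes by mean FPKM over the 24 libraries, with 2568, 3131 and 2622 FPKM in the 3 ctrl libraries at day 0. The heavy chain H2-K1 was at 778, 810.4 and 810.2 FPKM and the heavy chain H2-D1 at 228, 241 and 237 FPKM in the same libraries. Light chain thus stood above both heavy chains in every library, and H2-K1 stood above H2-D1 by a ratio of 3.08 to 3.61 between group means of the log ratio. The loading bridge Tapbp (tapasin) was at 228 ± 17.9 FPKM (mean ± SD, n = 3), Tap1 at 153 ± 8.21, Psmb8 at 137 ± 5.77, Psmb9 at 107 ± 5.78, Tap2 at 78.8 ± 8.72 and Nlrc5 at 52.7 ± 4.12 FPKM. Erap1, the aminopeptidase that trims peptides in the endoplasmic reticulum, was lowest of the 10 genes with 16.0 ± 1.68 FPKM. Tap1 exceeded its partner Tap2, with which it forms the transporter, in all 24 libraries.

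**Figure D1:**
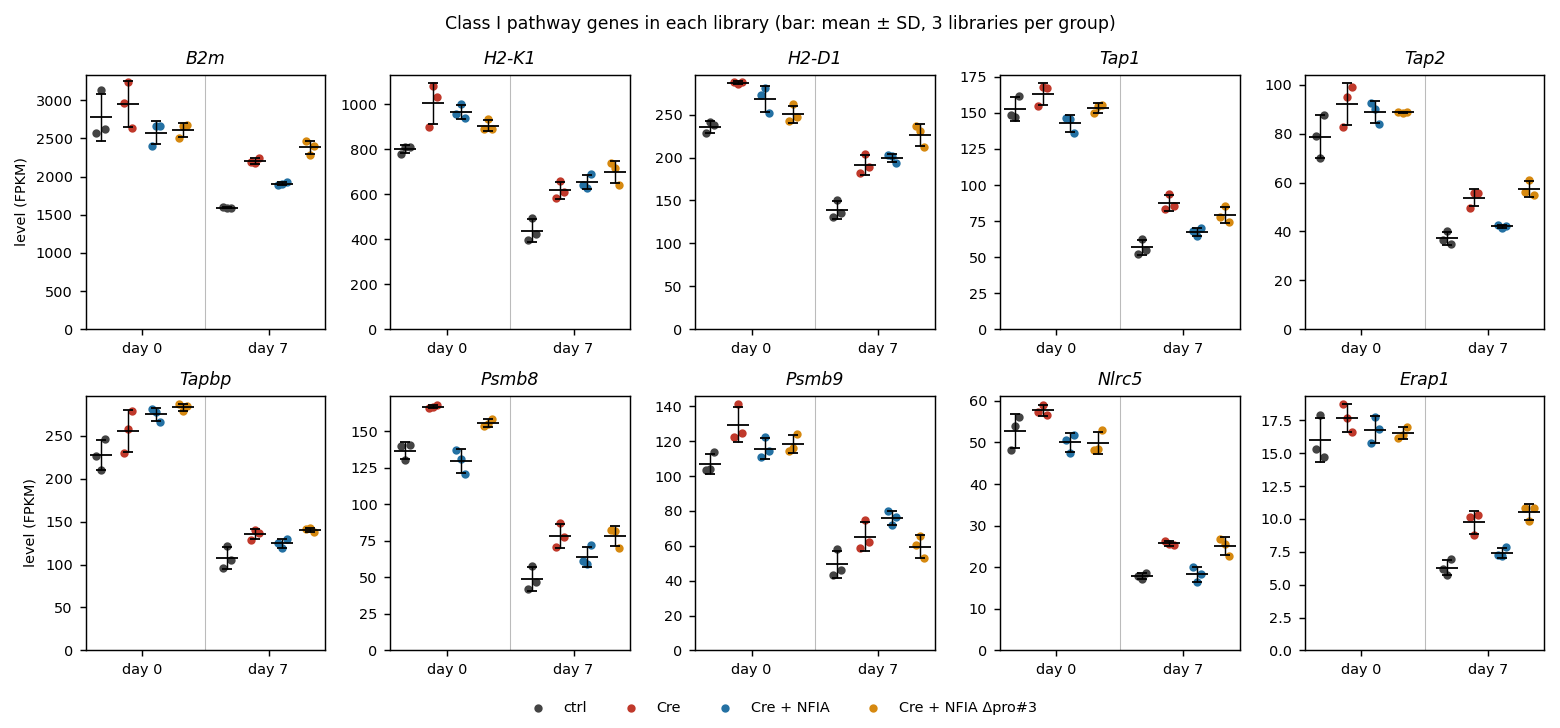
Level (FPKM, linear axis from 0) of each of the 10 class I genes in the 24 libraries, with day 0 on the left and day 7 on the right of each panel; points are libraries, coloured by cell type, and bars are the mean ± SD of 3 libraries. In 8 of 10 panels every day 0 point lies above every day 7 point, and at day 7 the ctrl group has the lowest mean in all 10.

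Levels of the pathway were lower at day 7 than at day 0 in all 4 cell types. All 10 genes fell in ctrl, in Cre and in Cre + NFIA, and 9 of 10 fell in Cre + deltapro#3, where fell means a limma adjusted p under 0.05 over all genes tested. Of all genes tested, 38.1% fell in ctrl, 21.6% in Cre, 38.3% in Cre + NFIA and 17% in Cre + deltapro#3. The median difference in log2(FPKM + 1) over the 10 genes was -1.10 in ctrl, -0.85 in Cre, -1.03 in Cre + NFIA and -0.78 in Cre + deltapro#3, beside medians over all genes tested of -0.053, 0.055, -0.048 and 0.047. Every library of day 0 was above every library of day 7, across cell types, for 8 genes, the exceptions being B2m and H2-D1. Lack of overlap was not counted over all genes tested, here or in the comparisons below. In these bulk libraries fewer cells of a type and less RNA per cell cannot be told apart, and the adipocyte, precursor and leukocyte sums above moved with the same comparison. Their part in it was not tested.

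The largest falls in ctrl were those of Nlrc5, Psmb8 and Tap1. Nlrc5 went from 48.1, 53.9 and 56.1 FPKM at day 0 to 17.9, 17.2 and 18.5 FPKM at day 7, 34.0% of the day 0 mean (difference in log2(FPKM + 1) -1.50 ± 0.070, SE throughout, limma adjusted p = 7.00e-14). Psmb8, the inducible subunit that replaces the chymotrypsin-like subunit Psmb5, went from 139.5, 130.01 and 140.4 to 42.3, 58.0 and 46.7 FPKM (-1.47 ± 0.10, limma adjusted p = 1.51e-11). Tap1 went from 148, 147 and 162 to 52.5, 62.6 and 55.0 FPKM (-1.41 ± 0.066, limma adjusted p = 6.82e-14). The groups did not overlap for any of the 10 genes in ctrl, and the falls ran from 1.70-fold for H2-D1 to 2.94-fold for Nlrc5. No gene of the pathway changed 3-fold in any comparison made here.

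In ctrl the smallest differences of the 10 were those of the class I chains themselves, although differences between genes were not tested. B2m went from 2774 ± 311 to 1593 ± 11.1 FPKM in ctrl (-0.79 ± 0.073), H2-K1 from 799.7 ± 18.4 to 438 ± 52.2 FPKM (-0.87 ± 0.078), and H2-D1 from 236 ± 6.72 to 139 ± 10.6 FPKM (-0.76 ± 0.058). In Cre + deltapro#3 the difference between days was -0.13 ± 0.073 for B2m (95% interval -0.29 to 0.018, limma adjusted p = 0.152), which did not pass, -0.15 ± 0.058 for H2-D1 (limma adjusted p = 0.0496) and -0.37 ± 0.078 for H2-K1 (limma adjusted p = 0.000573). With median-of-ratios size factors B2m passed (-0.19, limma adjusted p = 0.0324), and H2-D1 did not pass without the filter on low values or with only the groups compared in the model. With quantile normalization neither H2-K1 (-0.12, limma adjusted p = 0.157) nor H2-D1 (-0.075, limma adjusted p = 0.252) passed, and 7 of the 10 genes were lower. In the same cells Tap1 differed by -0.94 ± 0.066, Tapbp by -1.01 ± 0.075, Psmb8 by -0.99 ± 0.10 and Psmb9 by -0.98 ± 0.10, each a fall to between 49.6% and 51.8% of the day 0 mean. B2m was at 2509, 2658 and 2675 FPKM in Cre + deltapro#3 at day 0 and 2460.3, 2285 and 2399 at day 7. H2-D1 had 243, 262 and 247 FPKM at day 0 and 237, 231 and 212 at day 7. All 3 day 7 libraries lay below the day 0 libraries for both genes, by a margin that was small beside that of the other genes.

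**Figure D2:**
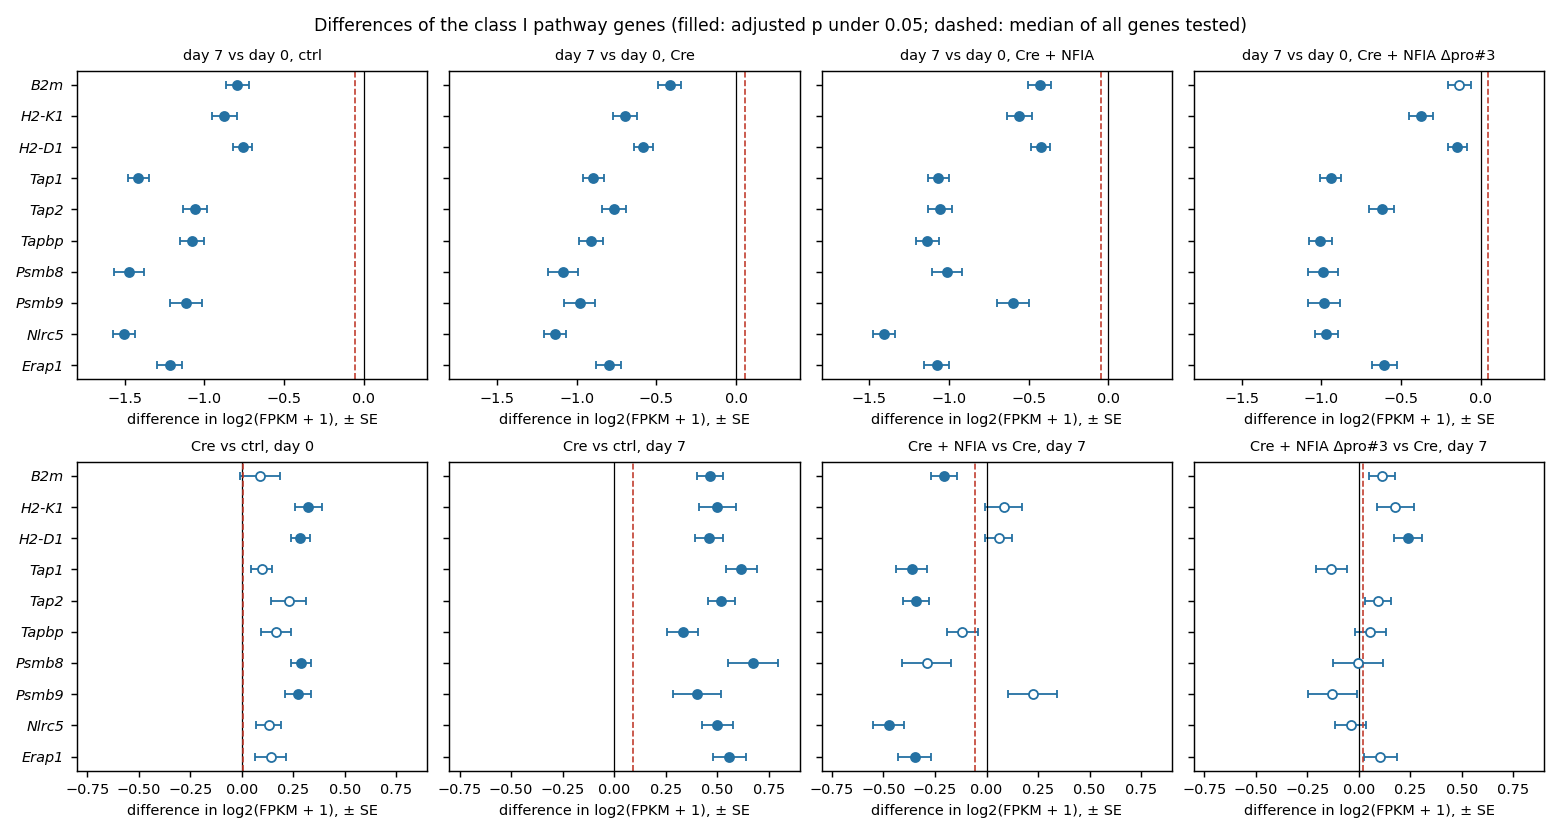
Difference in log2(FPKM + 1) of each of the 10 class I genes (horizontal axis, ± SE) in 8 comparisons; filled points have a limma adjusted p under 0.05, the solid line is 0 and the dashed line the median of all genes tested. In the upper row all points but that of B2m in Cre + deltapro#3 are filled and left of 0; in the lower row all 10 are filled and right of 0 only for Cre against ctrl at day 7.

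At day 7 every gene of the pathway was higher in the libraries labelled Cre than in ctrl. All 10 passed the test in that direction, against 36.1% of all genes tested that were higher and 22.7% that were lower. The median difference over the 10 genes was 0.50, with a range of 0.33 to 0.67, and the median over all genes tested was 0.091. The 3 ctrl libraries lay below the 3 Cre libraries for all 10 genes, a count that was not made over all genes tested. With median-of-ratios size factors the median of all genes moved by -0.11, the split of calls became 26.9% higher and 31.2% lower, and 8 of the 10 genes passed, without Tapbp and Psmb9. With quantile normalization 9 passed, without B2m (0.50, limma adjusted p = 0.0542).

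Psmb8 differed most, with 42.3, 58.0 and 46.7 FPKM in ctrl and 70.4, 86.8 and 77.7 in Cre (0.67 ± 0.12, limma adjusted p = 0.000455). Tap1 had 52.5, 62.6 and 55.0 FPKM in ctrl and 83.0, 93.4 and 85.3 in Cre (0.62 ± 0.075, limma adjusted p = 2.71e-05). Erap1 had 6.23, 5.74 and 6.92 FPKM in ctrl and 10.1, 8.76 and 10.3 in Cre (0.56 ± 0.080, limma adjusted p = 9.53e-05). The Cre levels were above ctrl and still below day 0 for each of these genes. B2m had 1604, 1582 and 1593 FPKM in ctrl and 2186, 2172 and 2248 in Cre, 138% of ctrl (limma adjusted p = 6.08e-05). H2-K1 had 395, 496 and 422 FPKM in ctrl and 582, 658 and 611 in Cre (0.50 ± 0.090, limma adjusted p = 0.000491). The remaining genes were higher by 0.52 ± 0.065 (Tap2), 0.50 ± 0.075 (Nlrc5), 0.46 ± 0.067 (H2-D1), 0.40 ± 0.12 (Psmb9) and 0.33 ± 0.075 (Tapbp) on the log2 scale. Tapasin had the smallest difference of the 10.

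Part of the set was higher in Cre already before differentiation. At day 0 the 4 genes H2-K1, H2-D1, Psmb8 and Psmb9 were higher in Cre than in ctrl and none was lower, while 1.63% of all genes tested were higher. H2-D1 had 228, 241 and 237 FPKM in ctrl and 287, 285 and 288 in Cre (0.28 ± 0.048, limma adjusted p = 0.0130). Psmb8 had 139.5, 130.01 and 140.4 FPKM in ctrl and 166, 166 and 168 in Cre (0.29 ± 0.048, limma adjusted p = 0.0130). H2-K1 (0.32 ± 0.065, limma adjusted p = 0.0256) and Psmb9 (0.27 ± 0.064, limma adjusted p = 0.0474) were higher as well, and for all 4 genes the groups did not overlap. The other 6 differed by 0.089 (B2m) to 0.23 (Tap2) and did not pass. The count was 0 in a model of only these 6 libraries and 2 without ctrl replicate 1, ctrl replicate 2, Cre replicate 2 or Cre replicate 3. Over all genes 206 calls were higher and 215 lower, a split that size factors by median of ratios turned into 1.09% and 1.72%.

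The difference between Cre and ctrl was larger at day 7 than at day 0 for 6 of the 10 genes by a test of the difference itself, an interaction of cell type with day in the model of all 24 libraries, against 29.7% of all genes tested. These were Tap1 (0.52 ± 0.093, limma adjusted p = 0.000113), Erap1 (0.42 ± 0.11), Psmb8 (0.39 ± 0.14), B2m (0.38 ± 0.10), Nlrc5 (0.37 ± 0.10) and Tap2 (0.29 ± 0.11). H2-K1 (0.18 ± 0.11), H2-D1 (0.18 ± 0.082), Psmb9 (0.13 ± 0.14) and Tapbp (0.17 ± 0.11) did not pass, and the first 3 are the genes that, with Psmb8, were already higher at day 0. With median-of-ratios size factors, which moved the median of all genes by -0.11, 3 of the 6 passed, Tap1, Erap1 and B2m, and the calls over all genes were 22.4% higher and 26.0% lower, where they had been 29.7% higher and 19.5% lower. With quantile normalization 8 of the 10 genes passed, so which genes pass depends on the scaling. H2-K1 (0.47, limma adjusted p = 0.000274), H2-D1 (0.43, limma adjusted p = 4.58e-05) and Tapbp (0.40, limma adjusted p = 0.00117) then passed. B2m did not pass there (-0.035, limma adjusted p = 0.940).

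With full-length NFIA in Cre cells, 5 genes were lower at day 7 than in Cre and none was higher: Nlrc5, Tap1, Erap1, Tap2 and B2m. Of all genes tested, 35.9% were lower and 27% higher. The median difference over the 10 genes was -0.25, against -0.057 over all genes. Nlrc5 had 26.3, 25.6 and 25.3 FPKM in Cre and 20.02, 16.4 and 18.4 in Cre + NFIA (-0.48 ± 0.075, limma adjusted p = 0.000157). Tap1 had 83.0, 93.4 and 85.3 FPKM in Cre and 68.4, 64.4 and 69.9 in Cre + NFIA (-0.36 ± 0.075, limma adjusted p = 0.00115). Tap2 had 49.7, 55.6 and 55.8 FPKM in Cre and 42.8, 41.4 and 42.1 in Cre + NFIA (-0.34 ± 0.065, limma adjusted p = 0.000620). For these genes no library of Cre + NFIA reached the Cre libraries. Erap1 (-0.35 ± 0.080, limma adjusted p = 0.00244) and B2m (-0.21 ± 0.063, limma adjusted p = 0.0129) also fell. B2m did not pass with either other scaling or without the filter on low values.

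The heavy chains and Psmb9 did not pass in this comparison. H2-K1 had 582, 658 and 611 FPKM in Cre and 643, 628 and 691 in Cre + NFIA (0.085 ± 0.090, 95% interval -0.11 to 0.28, limma adjusted p = 0.435). H2-D1 had 182, 204 and 189 FPKM in Cre and 203, 202 and 194 in Cre + NFIA (0.059 ± 0.067, 95% interval -0.088 to 0.21, limma adjusted p = 0.468). Psmb9 had 59.0, 75.0 and 62.0 FPKM in Cre and 80.1, 71.9 and 76.4 in Cre + NFIA (0.22 ± 0.12, 95% interval -0.033 to 0.48, limma adjusted p = 0.118). The groups overlapped for all 3 genes. Whether these genes differ in this from Tap1, whose RefSeq start lies 226 bases from that of Psmb9, was not tested. The direction of H2-D1 depends on the scaling: with quantile normalization it was lower in Cre + NFIA (-0.18, limma adjusted p = 0.00749). Psmb8 (-0.29 ± 0.12, limma adjusted p = 0.0519) and Tapbp (-0.12 ± 0.075, limma adjusted p = 0.193) did not pass. With quantile normalization both were lower (Psmb8 -0.38, limma adjusted p = 0.00759, and Tapbp -0.30, limma adjusted p = 0.00117), and 7 of the 10 genes were lower in all. With median-of-ratios size factors the calls over all genes were 33.7% higher and 29.1% lower, B2m did not pass and Psmb9 was higher (0.33, limma adjusted p = 0.0431).

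Set against ctrl at day 7, Cre + NFIA cells had 6 genes higher and none lower: Psmb9, H2-K1, H2-D1, Psmb8, B2m and Tap1, where 8.81% of all genes tested were higher. Psmb9 differed most (0.63 ± 0.12, limma adjusted p = 0.00373), followed by H2-K1 (0.58 ± 0.090, limma adjusted p = 0.00107) and H2-D1 (0.52 ± 0.067, limma adjusted p = 0.000318). Nlrc5 had 17.9, 17.2 and 18.5 FPKM in ctrl and 20.02, 16.4 and 18.4 in Cre + NFIA, with a difference of 0.025 ± 0.075 and a 95% interval of -0.14 to 0.19. For the transactivator the groups overlapped, while the heavy chain means were 1.43 to 1.49 times the ctrl mean. Tap2 (0.18 ± 0.065), Tapbp (0.21 ± 0.075) and Erap1 (0.21 ± 0.080) did not pass. The count of 6 was 3 without Cre + NFIA replicate 1 or 3 and 3 without the filter on low values. With median-of-ratios size factors 4 passed, without Tap1 (0.23, limma adjusted p = 0.101) and Psmb8 (0.36, limma adjusted p = 0.0869), and with quantile normalization 5 passed, without B2m (0.24, limma adjusted p = 0.476).

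Ordered by mean, ctrl was the lowest of the 4 cell types at day 7 for all 10 genes, and Cre + deltapro#3 was the highest for 6, Cre for 3 and Cre + NFIA for 1. H2-K1 had day 7 means of 438 ± 52.2 FPKM in ctrl, 617 ± 38.2 in Cre, 654 ± 33.1 in Cre + NFIA and 698 ± 50.5 in Cre + deltapro#3, of which each of the last 3 overlapped its neighbour. Tapbp had 108 ± 13.2 FPKM in ctrl, 125 ± 5.22 in Cre + NFIA, 135 ± 5.66 in Cre and 140.5 ± 2.07 in Cre + deltapro#3, and every neighbour in this order overlapped the next. Tap1 had 78.1, 85.6 and 74.6 FPKM in Cre + deltapro#3 and Nlrc5 26.8, 25.7 and 22.7 FPKM, and both overlapped Cre. B2m was the gene whose 4 day 7 groups were all apart, in the order ctrl, Cre + NFIA, Cre and Cre + deltapro#3. At day 0 Cre had the highest mean of 9 genes, and the group means there spanned 799.7 to 1003 FPKM for H2-K1, 143 to 163 FPKM for Tap1 and 49.9 to 57.7 FPKM for Nlrc5.

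With the deltapro#3 mutant in Cre cells, 1 of the 10 genes differed from Cre at day 7. H2-D1 was higher, at 182, 204 and 189 FPKM in Cre and 237, 231 and 212 FPKM in Cre + deltapro#3 (0.24 ± 0.067, limma adjusted p = 0.0287), and 7.7% of all genes tested were higher. It did not pass without Cre replicate 1 or 3, without Cre + deltapro#3 replicate 1 or 2, with median-of-ratios size factors or with only the groups compared in the model. The other 9 differed by -0.13 (Tap1) to 0.18 (H2-K1). The 95% interval was -0.21 to 0.12 for Nlrc5, -0.27 to 0.26 for Psmb8, -0.39 to 0.13 for Psmb9 and -0.019 to 0.37 for H2-K1.

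Mutant and full-length NFIA were also compared directly at day 7. In Cre + deltapro#3, 6 genes were higher than in Cre + NFIA (Erap1, Nlrc5, Tap2, B2m, Tap1 and H2-D1) and Psmb9 was lower, where 40.4% of all genes tested were higher and 28.9% lower. Tap2 had 42.8, 41.4 and 42.1 FPKM in Cre + NFIA and 56.0, 61.2 and 54.8 in Cre + deltapro#3 (0.43 ± 0.065, limma adjusted p = 7.67e-05). Erap1 had 7.29, 7.16 and 7.84 FPKM in Cre + NFIA and 10.9, 9.84 and 10.9 in Cre + deltapro#3 (0.45 ± 0.080, limma adjusted p = 0.000312). Psmb9 had 80.1, 71.9 and 76.4 FPKM in Cre + NFIA and 60.4, 65.5 and 52.8 in Cre + deltapro#3 (-0.35 ± 0.12, limma adjusted p = 0.0185). The groups did not overlap for any of the 7, and Psmb9 alone of the 10 had its highest day 7 mean in Cre + NFIA. The median of all genes in this comparison moved by -0.10 with median-of-ratios size factors, under which 4 were higher and 1 lower, and with quantile normalization 9 were higher and none lower.

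At day 0, 3 genes were lower in Cre + NFIA than in Cre, against 12.9% of all genes tested. Psmb8 had 166, 166 and 168 FPKM in Cre and 137, 131 and 121 in Cre + NFIA (-0.36 ± 0.048, limma adjusted p = 0.000263). Tap1 (-0.19 ± 0.051, limma adjusted p = 0.0167) and Nlrc5 (-0.20 ± 0.061, limma adjusted p = 0.0299) were the other two. In Cre + deltapro#3, H2-D1 (-0.20 ± 0.048, limma adjusted p = 0.0170) and Nlrc5 (-0.21 ± 0.061, limma adjusted p = 0.0386) were lower than in Cre, against 9.02% of all genes. Between the transgenes only Psmb8 passed, higher in Cre + deltapro#3 (0.26 ± 0.048, limma adjusted p = 0.00478), against 4.5% of all genes. The count of 3 was 1 without Cre replicate 2 or 3, and the count of 2 was 0 without Cre + deltapro#3 replicate 1 and 1 without Cre replicate 2 or 3 or Cre + deltapro#3 replicate 2 or 3. The Cre + deltapro#3 libraries held 153, 155 and 159 FPKM of Psmb8, between those of Cre and Cre + NFIA.

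Tests of whether a transgene's difference from Cre changed between the days gave 4 genes for NFIA and 2 for deltapro#3. For NFIA, Tap2 (-0.29 ± 0.11, limma adjusted p = 0.0304), Nlrc5 (-0.27 ± 0.10, limma adjusted p = 0.0279) and Erap1 (-0.28 ± 0.11, limma adjusted p = 0.0410) moved down and Psmb9 (0.38 ± 0.14, limma adjusted p = 0.0292) moved up between day 0 and day 7. Of all genes tested, 30.1% moved down and 18.8% up. For deltapro#3, H2-D1 (0.44 ± 0.082, limma adjusted p = 0.000941) and H2-K1 (0.32 ± 0.11, limma adjusted p = 0.0457) moved up, against 7.79% of all genes. H2-K1 did not pass with median-of-ratios size factors (0.32, limma adjusted p = 0.0843), without the filter on low values, with only the groups compared, without the trend, or when any library of its groups was left out other than Cre replicate 1 of day 0, Cre replicate 2 of day 7 or Cre + deltapro#3 replicate 3 of day 7. With median-of-ratios size factors, which moved the median of all genes by 0.11, the NFIA calls over all genes were 25.0% up and 23.1% down, Psmb9 and H2-D1 were up, and Tap2, Nlrc5 and Erap1 did not pass. With quantile normalization 3 genes were down for NFIA and none was up. Tap1 (-0.29, limma adjusted p = 0.00608) and Tapbp (-0.43, limma adjusted p = 0.000557) then passed beside Tap2. Psmb9 (0.28, limma adjusted p = 0.0693), Nlrc5 (-0.20, limma adjusted p = 0.135) and Erap1 (-0.16, limma adjusted p = 0.227) did not.

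The RNA of inducible and constitutive proteasome subunits could be compared within each library. These RNA ratios do not show which subunits the assembled proteasome holds. Psmb8, Psmb9 and Psmb10 are the inducible counterparts of the constitutive catalytic subunits Psmb5, Psmb6 and Psmb7. In ctrl the log2 ratio of Psmb8 to Psmb5 was 1.18, 1.49 and 1.36 in the 3 libraries at day 0 and -1.53, -1.39 and -1.43 at day 7, a mean difference of -2.80. Its mean ± SD at day 7 was -0.064 ± 0.21 in Cre, -1.11 ± 0.082 in Cre + NFIA and 0.15 ± 0.042 in Cre + deltapro#3. Psmb8 stood above Psmb5 in every library at day 0, and at day 7 it stood below it in ctrl and Cre + NFIA, while in Cre and Cre + deltapro#3 the mean ratio was nearer to 0. The other ratios were below 0 on both days, with group means at day 0 of -0.61 ± 0.10 (Cre + deltapro#3) to -0.36 ± 0.037 (Cre) for Psmb9 to Psmb6 and of -0.99 ± 0.10 (Cre + NFIA) to -0.53 ± 0.28 (Cre) for Psmb10 to Psmb7. The ratio of Psmb9 to Psmb6 at day 7 was -2.14 ± 0.091 in ctrl, -1.31 ± 0.14 in Cre, -1.61 ± 0.054 in Cre + NFIA and -1.19 ± 0.020 in Cre + deltapro#3. The ratio of Psmb10 to Psmb7 was -2.96 ± 0.18, -2.21 ± 0.064, -2.89 ± 0.11 and -1.98 ± 0.080 in the same order. All 3 ratios were higher in Cre than in ctrl and lower in Cre + NFIA than in Cre at day 7, with no overlap between groups (exact two-sided permutation test, p = 0.1 in each case, the smallest that 3 against 3 allows). They were lower at day 7 than at day 0 in all 4 cell types, again without overlap and with an exact permutation p of 0.1.

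Between the days in ctrl, both sides of these ratios moved. This did not hold for every lower ratio. Psmb9 had a mean of 65.3 FPKM in Cre and 76.1 in Cre + NFIA at day 7, a difference that did not pass. Its ratio to Psmb6 was nevertheless lower in Cre + NFIA. The 14 genes of the constitutive core were higher at day 7 than at day 0 in 13 cases in ctrl and 13 in Cre + NFIA and in 8 in Cre, and in Cre + deltapro#3 none was higher and 5 were lower. Of all genes tested, 32.9% were higher in ctrl, 31.8% in Cre + NFIA and 30% in Cre, and in Cre + deltapro#3 24.5% were higher and 17% lower. The list medians were 0.67 in ctrl, 0.60 in Cre + NFIA, 0.23 in Cre and -0.12 in Cre + deltapro#3. At day 7 Psmb5 was at 134 ± 16.4 FPKM in ctrl, 82.6 ± 16.2 in Cre, 138 ± 7.02 in Cre + NFIA and 70.2 ± 7.13 in Cre + deltapro#3. In Cre against ctrl at day 7, 11 of the 14 were lower and none higher (median -0.39), against 22.7% and 36.1% of all genes tested. In Cre + NFIA against Cre at day 7, 13 were higher and none lower (median 0.42), against 27% and 35.9%. Ctrl and Cre + NFIA were also the groups with the high sums of adipocyte markers at day 7, whose part in this was not tested.

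Psmb10 fell between the days in all 4 cell types, as Psmb8 and Psmb9 did, while the activator subunits Psme1 and Psme2 moved in opposite directions in ctrl and Cre + NFIA. Psmb10 fell from 82.0 ± 9.63 to 35.1 ± 5.51 FPKM in ctrl (-1.20 ± 0.10, limma adjusted p = 5.39e-10) and was higher in Cre at day 7 (0.26 ± 0.10, limma adjusted p = 0.0403). Psme2, a subunit of the interferon-inducible PA28 activator, rose in ctrl from 206, 184 and 218 to 343, 418 and 352 FPKM (0.87 ± 0.092, limma adjusted p = 3.66e-08). It was lower in Cre than in ctrl at day 7 (-0.79 ± 0.10, limma adjusted p = 4.70e-05) and lower in Cre + deltapro#3 than in Cre + NFIA (-1.37 ± 0.10, limma adjusted p = 2.10e-07). Its partner Psme1 fell in ctrl from 208 ± 14.7 to 159.6 ± 17.1 FPKM (-0.38 ± 0.078, limma adjusted p = 0.000181). In Cre + deltapro#3 both fell between the days (Psme1 -0.90 ± 0.078, Psme2 -0.61 ± 0.092), and in Cre Psme1 fell (-0.83 ± 0.078) and Psme2 did not pass (-0.18 ± 0.092, limma adjusted p = 0.114). The log2 ratio of Psme1 to Psme2 was 0.037 ± 0.092 at day 0 and -1.22 ± 0.032 at day 7 in ctrl, a difference without overlap between the days (exact permutation p = 0.1). At day 7 the ratio was -0.70 ± 0.052 in Cre, -1.05 ± 0.025 in Cre + NFIA and -0.37 ± 0.0085 in Cre + deltapro#3.

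**Figure D3:**
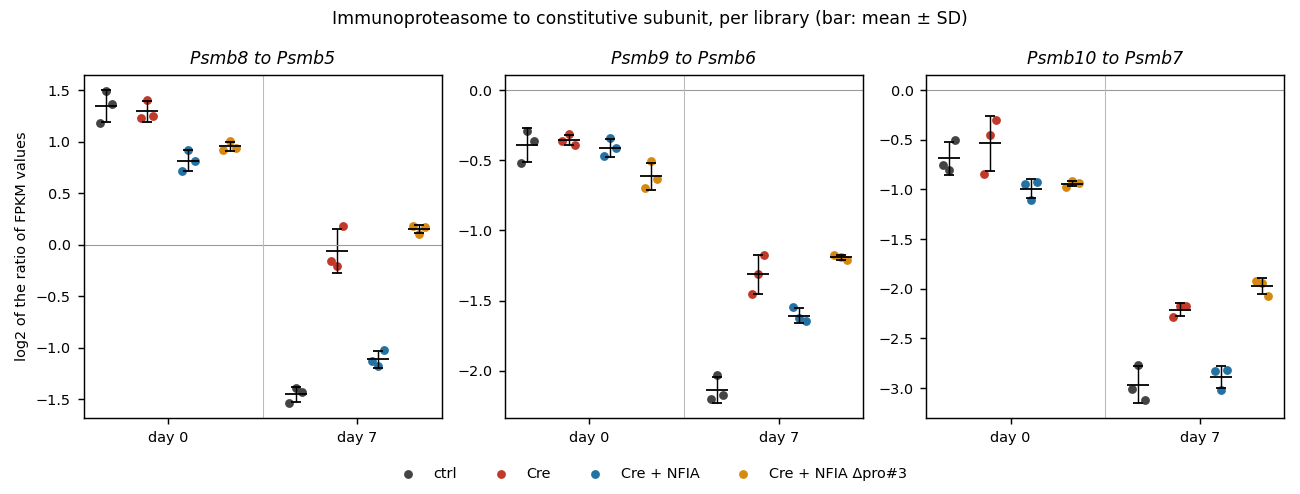
Log2 ratio of FPKM of each inducible proteasome subunit to its constitutive counterpart in the 24 libraries (vertical axis), with day 0 on the left and day 7 on the right of each panel; points are libraries coloured by cell type, bars the mean ± SD of 3. All 3 ratios are lower at day 7 in every cell type, and at day 7 the ctrl points are lowest for Psmb8 to Psmb5 and Psmb9 to Psmb6.

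Other class I heavy chains split into sets that went opposite ways. Of 22 listed genes, 13 passed the filter. In ctrl 7 were lower and 3 higher at day 7 (median -1.06), against 38.1% and 32.9% of all genes tested. In Cre against ctrl at day 7, 7 were higher and 5 lower (median 0.55), against 36.1% and 22.7%. In Cre + NFIA against Cre at day 7, 6 were higher and 7 lower (median -0.24), against 27% and 35.9%. The nonclassical chains H2-Q4, H2-T23 and H2-M3 fell with the 10 genes. H2-Q4 went from 326 ± 12.2 to 108 ± 9.25 FPKM (-1.59 ± 0.065), H2-T23, which encodes Qa-1, from 191 ± 4.77 to 56.5 ± 6.08 FPKM (-1.74 ± 0.080), and H2-M3, which presents N-formyl peptides, from 26.1 ± 2.43 to 7.96 ± 0.722 FPKM (-1.60 ± 0.10). All 3 were higher in Cre than in ctrl at day 7 and lower in Cre + NFIA than in Cre, with differences in the last of -0.79 ± 0.11 for H2-M3, -0.47 ± 0.10 for H2-T23 and -0.42 ± 0.076 for H2-Q4. Whether they differ in this from H2-K1 and H2-D1, which did not pass in the last comparison, was not tested.

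Cd1d1, the lipid-presenting class I-like molecule that adipocytes show to NKT cells, went the other way. It rose in ctrl from 10.5, 12.2 and 11.9 to 83.5, 85.3 and 87.4 FPKM (2.79 ± 0.15, limma adjusted p = 5.71e-13). Day 7 levels were 35.6, 40.9 and 22.4 FPKM in Cre, 76.8, 75.9 and 79.3 in Cre + NFIA and 9.72, 13.8 and 14.1 in Cre + deltapro#3. It was lower in Cre than in ctrl (-1.39 ± 0.18, limma adjusted p = 4.39e-05) and higher in Cre + NFIA than in Cre (1.25 ± 0.18, limma adjusted p = 7.61e-05). In Cre + deltapro#3 the difference between days was -0.070 ± 0.15 (limma adjusted p = 0.742). Cd1d2 (1.83 ± 0.19, limma adjusted p = 1.77e-08) was the other class I-like gene past 3-fold in ctrl in this direction. H2-K2 had 6.97 ± 1.80 FPKM in Cre and 21.8 ± 1.58 in Cre + NFIA at day 7 (1.54 ± 0.22, limma adjusted p = 7.72e-05), and its values are uncertain where reads could belong to another class I gene.

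Among 10 genes of peptide loading and folding, 7 fell in ctrl between the days and none rose (median -0.25), against 38.1% and 32.9% of all genes tested. At day 7, 5 were higher and none lower in Cre than in ctrl (median 0.12), against 36.1% and 22.7%. In Cre + NFIA against Cre at day 7, 5 were lower and none higher (median -0.19), against 35.9% and 27%. The thiol oxidoreductase Pdia3 (ERp57) fell from 351 ± 33.3 to 203 ± 11.8 FPKM (-0.78 ± 0.072, limma adjusted p = 3.91e-09) and Calr (calreticulin) from 763 ± 19.2 to 531 ± 1.22 FPKM (-0.52 ± 0.042, limma adjusted p = 3.73e-10). Tapbpl (TAPBPR), the tapasin relative that edits peptides, fell from 16.0 ± 0.664 to 8.41 ± 0.823 FPKM (-0.86 ± 0.081, limma adjusted p = 6.09e-09). Canx (calnexin) was at 111 ± 11.02 and 105 ± 6.23 FPKM (-0.077 ± 0.069, limma adjusted p = 0.322) and did not pass. At day 7 Pdia3 was higher in Cre than in ctrl (0.56 ± 0.068, limma adjusted p = 2.77e-05) and lower in Cre + NFIA than in Cre (-0.68 ± 0.068, limma adjusted p = 3.89e-06), while Tapbpl did not pass in either comparison (0.093 ± 0.084 and -0.059 ± 0.084). Of 7 cytosolic trimming peptidases, 3 rose and 2 fell in ctrl, with a median of 0.047, beside the same 32.9% and 38.1% of all genes tested.

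Of 13 genes that act on class I transcription, 8 fell and 3 rose in ctrl between the days (median -0.40), against 38.1% and 32.9% of all genes tested. At day 7, 7 were higher and 2 lower in Cre than in ctrl, against 36.1% and 22.7%. In Cre + NFIA against Cre at day 7, 6 were lower and 2 higher, against 35.9% and 27%. Of 13 interferon ligands, receptors and signalling genes, 12 passed the filter, and 11 of them fell and 1 rose in ctrl (median -1.01), 10 were higher and none lower in Cre than in ctrl, and 11 were lower and none higher in Cre + NFIA than in Cre. Rfx5, a subunit of the RFX complex that recruits NLRC5 to class I promoters, fell in ctrl from 12.6 ± 0.697 to 5.16 ± 0.492 FPKM (-1.15 ± 0.073, limma adjusted p = 9.47e-12), and Irf1 from 44.8 ± 3.46 to 22.03 ± 1.33 FPKM (-0.99 ± 0.063, limma adjusted p = 1.09e-11). Both were higher in Cre than in ctrl at day 7 (0.53 ± 0.070 and 0.35 ± 0.061) and lower in Cre + NFIA than in Cre (-0.34 ± 0.070 and -0.21 ± 0.061). Ciita, the class II counterpart of Nlrc5, never passed 3 reads, H2-Aa 2 and Ifng 1. These 3 genes did not exceed 3 reads anywhere. Ifnb1, a type I interferon, was at 1.73, 3.23 and 2.08 FPKM in ctrl at day 0 and 0.106, 0 and 0.0920 at day 7.

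Interferon-stimulated genes outside the pathway, 27 in the list, had a larger median difference than the 10 genes in the comparisons of days. All 27 fell between the days in each of the 4 cell types, with medians of -1.82 in ctrl, -1.10 in Cre, -1.62 in Cre + NFIA and -1.15 in Cre + deltapro#3. Of all genes tested, 38.1%, 21.6%, 38.3% and 17% fell, in the same order. In ctrl 19 of the 27 fell by 3-fold or more, Mx1 (-3.87 ± 0.15), Ifi44 (-3.22 ± 0.15) and Cxcl10 (-2.90 ± 0.081) by most. The share of all genes that fell by 3-fold is not given here. At day 7, 23 of the 27 were higher in Cre than in ctrl and none lower (median 0.65), against 36.1% and 22.7% of all genes tested. In Cre + NFIA against Cre at day 7, 23 were lower and none higher (median -0.83), against 35.9% and 27%. The summed FPKM of the 27 genes at day 7 was 1669 to 1911 in ctrl, 2728 to 2853 in Cre, 1528 to 1881 in Cre + NFIA and 2293 to 2639 in Cre + deltapro#3. The sums of ctrl and Cre + NFIA overlapped, and at the same time H2-K1, H2-D1 and Psmb9 were higher in Cre + NFIA than in ctrl. In Cre + NFIA against ctrl, 1 of the 27 was higher and 2 lower, with a median of 0.037, beside 6 higher of the 10 class I genes with a median of 0.26. Of all genes tested, 8.81% were higher and 9.15% lower.

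**Figure D4:**
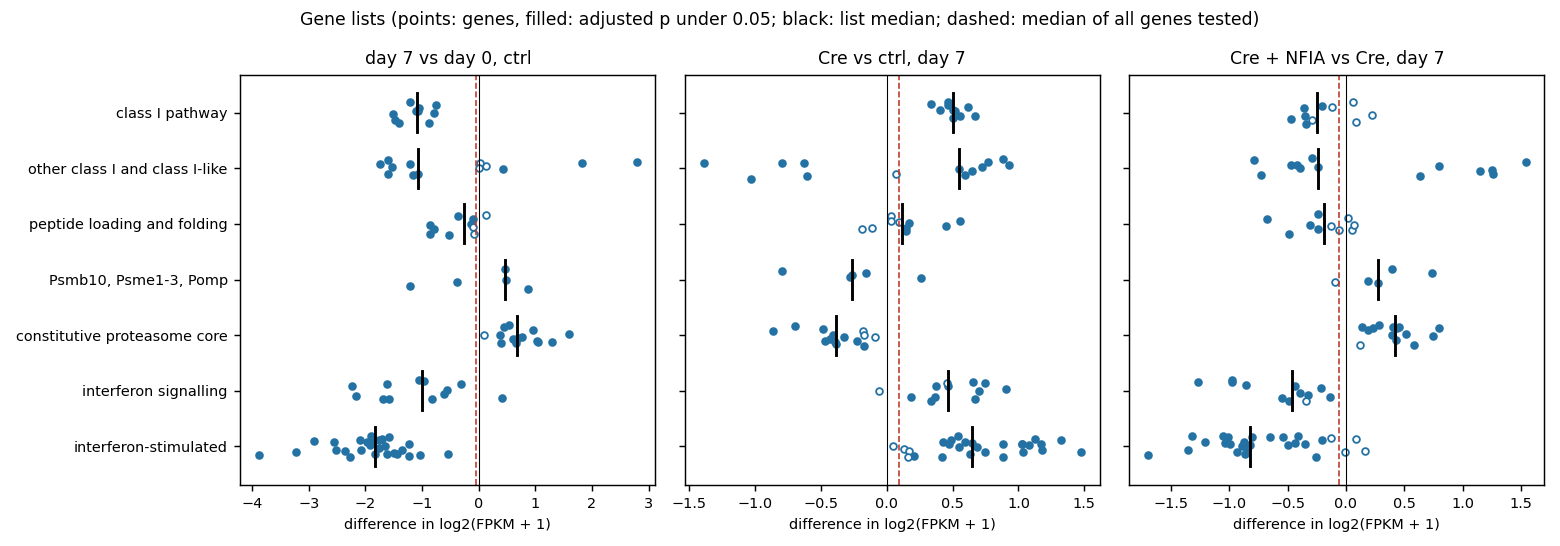
Difference in log2(FPKM + 1) for the genes of 7 lists (rows) in 3 comparisons; points are genes, filled where the limma adjusted p is under 0.05, black bars are list medians and the dashed line is the median of all genes tested. The median of the class I pathway lies on the side of the interferon medians and opposite to that of the constitutive proteasome core in all 3 panels, and the other class I genes split to both sides of 0.

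The 10 genes varied together over the libraries, a description in which day and cell type are shared by all points. Pearson's r of log2(FPKM + 1) over 24 libraries was 0.80 to 0.99 over the 45 pairs, with a median of 0.93. Over the 12 libraries of day 7 the median was 0.82 (0.12 to 0.98), and over the 12 of day 0 it was 0.40 (-0.55 to 0.86). Tap1 and Psmb8 were most alike over all libraries (0.99), and H2-K1 and H2-D1 had 0.98. Tap1 and Psmb9, whose promoter windows overlap, had 0.94 over all libraries and 0.54 over those of day 7. The 3 genes most like each of the 10, out of all genes tested, are given by the same r over 24 libraries. For Nlrc5 they were Oas1b (0.99), Cxcl10 (0.99) and Trafd1 (0.99), for Tap1 H2-Q4 (0.99), Ube2l6 (0.99) and Lgals9 (0.99) and for Psmb8 Tap1 (0.99), H2-Q4 (0.99) and Lgals9 (0.98). For Tap2 they were Pigs (0.99), H2-Q4 (0.98) and Plscr1 (0.98), for Tapbp Socs3 (0.99), Tcirg1 (0.99) and Ccl5 (0.99) and for Erap1 Ifi44 (0.98), Mcm6 (0.98) and Parp14 (0.98). H2-Q4 appears for Tap1, Tap2 and Psmb8. For H2-K1 they were H2-D1 (0.98), H2-T23 (0.93) and Psmb8 (0.93) and for H2-D1 H2-K1 (0.98), Rhebl1 (0.92) and Oas1c (0.91). For Psmb9 they were Ifi35 (0.97), Psmb10 (0.95) and Nmi (0.94) and for B2m Ifit2 (0.96), Tmem106a (0.95) and Lrrn4cl (0.95).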

How the data were processed

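RNA of 24 libraries (8 groups of 3) was sequenced with a stranded mRNA kit. The authors aligned the reads to mm9 with STAR 2.5.3a per the submitters' notes, kept uniquely aligned reads on the matching strand and deposited FPKM per gene; the annotation behind the counts is not given in the sources used here. Each FPKM value, 100% of them, came out as a whole number of reads once the worth of 1 read was solved for (within 0.01 of a read), which gave 7.73 M to 14.6 M reads per library, so that 3 reads correspond to 0.205 to 0.388 reads per 1 M. A count of 0 or a low count carries counting error only at that precision.

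log2(FPKM + 1) was fitted with limma 3.58.1 (mean-variance trend, R 4.3.3) over 12640 genes that reached an FPKM of 1 in 3 or more libraries. Within-day fits held 12 libraries, and fits for days and interactions held all 24. A gene passed at a Benjamini-Hochberg adjusted p under 0.05 over all genes tested, and fold changes on this scale understate those of low genes. The 5 ratios within a library were compared in 12 ways each by exact two-sided permutation tests, 60 in all, and as none can fall below 0.1 no adjusted value can either. The script for the fits was tested on simulated data. Promoter windows of 300 bases came from RefSeq on NCBIM37, positions from GENCODE vM1.

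The 10 genes, the lists around them and the rule for named genes were chosen with earlier results of these data known. The rule named all 10 genes, 17 genes of the lists with set names (1 of which is not reported here), list genes past 3-fold, Nfia, and the 3 genes most like each of the 10. Of the list genes past 3-fold only some are described; Cd68, Csf1r, Lyz2, H2-Aa, Ifng and Ifnb1 were named after their values were seen. Alternatives were 2 other pseudocounts, 2 other filters, 2 other scalings, 3 other models, limma voom on the recovered reads, a replicate block and the omission of each library in turn.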

Additional observations from a re-analysis of the deposited data

Results flagged for a closer look

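The following 12 differences between cell types changed between day 0 and day 7 by the interaction test (limma, values on the log2(FPKM + 1) scale, day 7 minus day 0, adjusted over all genes tested). For Cre against ctrl they were 0.52 ± 0.093 (SE) for Tap1, 0.42 ± 0.11 for Erap1, 0.39 ± 0.14 for Psmb8, 0.38 ± 0.10 for B2m, 0.37 ± 0.10 for Nlrc5 and 0.29 ± 0.11 for Tap2. Tap1 had the largest of these values and Tap2 the smallest, and 29.7% of all genes tested moved in that direction. B2m did not pass under quantile normalization, and Psmb8, Nlrc5 and Tap2 did not pass under median-of-ratios scaling. For Cre + NFIA against Cre they were 0.38 ± 0.14 for Psmb9, -0.29 ± 0.11 for Tap2, -0.28 ± 0.11 for Erap1 and -0.27 ± 0.10 for Nlrc5. No gene named for this comparison passed under both other scalings. Of all genes tested 30.1% moved down, the same share as the 3 of these 10 genes, and 18.8% moved up. For Cre + deltapro#3 against Cre they were 0.44 ± 0.082 for H2-D1 and 0.32 ± 0.11 for H2-K1, the 2 classical heavy chains, against 7.79% of all genes. H2-K1 did not pass without the filter on low values, under median-of-ratios scaling, with only the groups compared or without the trend. Groups of 3 libraries are too small for a check of single outlying libraries.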

How the results depend on the processing

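All 10 genes passed lower at day 7 in ctrl, Cre and Cre + NFIA, and higher in Cre than in ctrl at day 7, without any 1 library. The number passing ranged with a library left out from 5 to 6 for Cre + NFIA against Cre, 0 to 1 for Cre + deltapro#3 against Cre, 5 to 7 for Cre + deltapro#3 against Cre + NFIA and 3 to 8 for Cre + NFIA against ctrl at day 7. At day 0 it ranged from 2 to 4 for Cre against ctrl, 1 to 2 for Cre + NFIA against Cre, 0 to 2 for Cre + deltapro#3 against Cre and 1 to 1 for Cre + deltapro#3 against Cre + NFIA. For day 7 against day 0 in Cre + deltapro#3 it was 8 to 9. For the interactions it was 4 to 9 for Cre against ctrl, 1 to 4 for Cre + NFIA against Cre, and 1 to 2 for Cre + deltapro#3 against Cre. The 1 of the second was reached without Cre + NFIA replicate 1 or 3 of day 0, Cre replicate 1 or 3 of day 7, or Cre + NFIA replicate 2 of day 7, and it was 2 without Cre replicate 2 or Cre + NFIA replicate 2 of day 0 or Cre + NFIA replicate 1 of day 7. The last was 1 without any library of its groups except Cre replicates 1 and 3 of day 0, Cre replicate 2 of day 7 and Cre + deltapro#3 replicate 3 of day 7.

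With no filter on low values the number was 3 for Cre + NFIA against ctrl at day 7, 2 for Cre against ctrl and 1 for Cre + deltapro#3 against Cre at day 0, and 1 for the interaction of Cre + deltapro#3. Scaling by median-of-ratios size factors gave 0 for Cre + deltapro#3 against Cre at day 7, 3 for the interaction of Cre against ctrl, 2 for that of Cre + NFIA and 1 for that of Cre + deltapro#3. With quantile normalization it was 1 for Cre against ctrl and 4 for Cre + deltapro#3 against Cre at day 0. With only the groups compared in the model it was 0 for Cre + deltapro#3 against Cre at day 7, 0 for Cre against ctrl at day 0 and 1 for the interaction of Cre + deltapro#3. With all 24 libraries it was 2 for Cre against ctrl and 0 for Cre + deltapro#3 against Cre + NFIA at day 0. Without the trend it was 1 for Cre + deltapro#3 against Cre at day 0 and 1 for its interaction. With quantile normalization 2 values reversed, H2-D1 in Cre + NFIA against Cre at day 7 (-0.18) and B2m in the interaction of Cre against ctrl (-0.035). The causes were not tested.

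Of 2830 values for single genes under an alternative, 2620 stayed on the same side of the threshold (47 of them with the other sign and neither value passing), 157 no longer passed and 51 newly passed. With the replicate number as a block the number passing was 6, 1, 8 and 7 for the day 7 comparisons in the order above and 10 for Cre against ctrl, and it moved by at most 1 in any comparison. Nothing in the sources says that the numbers pair the libraries. Mean correlations of same-numbered deviations were -0.16 to 0.056, with single pairs from -0.27 to 0.20. So few pairs cannot settle whether the numbers pair cultures. The share of calls over all genes moved with quantile normalization to 23.4% higher and 29.2% lower in Cre between days (from 30% and 21.6%), to 19.5% and 20.6% in Cre + deltapro#3 (from 24.5% and 17%) and to 0.965% and 1.73% for Cre against ctrl at day 0 (from 1.63% and 1.7%).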
